A study of Homo sapiens with 2 samples.

Results

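Imprinted genes were examined as 6 windows of the genome build hg19 that hold 9 of them, and the members are the nascent strand intervals whose midpoint lies in a window. The windows were set by gene position and not by any measured value, but this rule was chosen with earlier results of these data known. They were H19 and IGF2 (chr11:2010001-2180000), KCNQ1 and CDKN1C (chr11:2460001-2910000), DLK1 and MEG3 (chr14:101190001-101330000), SNRPN (chr15:25060001-25230000), GNAS (chr20:57410001-57490000) and MEST (chr7:130120001-130150000). Together they held 214 of the 161869 named intervals of the series, and 161 of these (75.2%) came from both chromosome 11 windows. The window of H19 and IGF2 held 44 intervals, that of KCNQ1 and CDKN1C 117, DLK1 and MEG3 28, GNAS 19, SNRPN 5 and MEST 1. All intervals come from 1 group: wild-type U2OS, an established osteosarcoma cell line, blocked with thymidine in 2 rounds, which stops cells as S phase begins, and taken 2 hours after they were let go. DNA was separated by size and digested with an exonuclease, a procedure in which short new strands at replication start sites are protected by their RNA primer. The 2 libraries enter the interval lists as 1 intersected set, while fold enrichment, −log10 q and peak numbers come from replicate 1 alone. Widths and covered shares use whole intervals, of which peaks of both libraries often cover only part. No measure is listed for each library separately, and no label says that they came from separate cultures. There is thus no spread between replicates and no test between samples. The reads behind a peak are unknown. The intervals given as errors cover counting error only and treat neighbouring intervals as independent.

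An imprinted gene is expressed from the allele of 1 parent, under control of a nearby region whose DNA is methylated on the allele of 1 parent. In such regions the parental alleles of normal cells are known to differ in chromatin, and at several of them in replication time. The reads of both alleles are merged in these lists, so alleles cannot be told apart here, and the number of copies of each region in U2OS was not analysed here. H19 is a maternally expressed non-coding RNA and IGF2 a paternally expressed growth factor. KCNQ1 encodes a potassium channel subunit and CDKN1C an inhibitor of cyclin-dependent kinases, both in the neighbouring cluster. DLK1 encodes a membrane protein of the Notch ligand type and MEG3 a maternally expressed non-coding RNA. SNRPN encodes a protein of small nuclear ribonucleoproteins and is expressed from the paternal allele, GNAS encodes the stimulatory G protein alpha subunit, and MEST is a paternally expressed gene of the hydrolase fold family.

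Promoter sequences are shown for SNRPN, GNAS and MEST, the members that stand alone in their window, because CpG dinucleotides in such promoters can carry the methylation that marks the alleles. Each spans 250 bases before to 50 bases after a transcript start in RefSeq, build GRCh38.p14, and is the start with most CpG among those listed for the gene. They are written 5′ to 3′ with each CG (the same letters on both strands) in capitals. The positions are chr15:24954737-24955036 on the plus strand for SNRPN, chr20:58888930-58889229 on the plus strand for GNAS and chr7:130491835-130492134 on the plus strand for MEST.
SNRPN: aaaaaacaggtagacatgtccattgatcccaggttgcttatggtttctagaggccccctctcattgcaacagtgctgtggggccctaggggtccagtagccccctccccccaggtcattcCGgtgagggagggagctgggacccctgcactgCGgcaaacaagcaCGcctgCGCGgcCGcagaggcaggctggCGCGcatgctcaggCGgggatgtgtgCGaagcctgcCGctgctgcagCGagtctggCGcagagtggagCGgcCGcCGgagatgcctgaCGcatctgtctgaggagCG
GNAS: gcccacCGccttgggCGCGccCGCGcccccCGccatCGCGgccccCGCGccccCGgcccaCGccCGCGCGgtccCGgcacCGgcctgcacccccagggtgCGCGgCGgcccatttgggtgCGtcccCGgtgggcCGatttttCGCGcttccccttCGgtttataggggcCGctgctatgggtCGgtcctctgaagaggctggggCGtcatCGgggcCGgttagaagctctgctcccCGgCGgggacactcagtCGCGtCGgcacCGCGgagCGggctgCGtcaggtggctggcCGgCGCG
MEST: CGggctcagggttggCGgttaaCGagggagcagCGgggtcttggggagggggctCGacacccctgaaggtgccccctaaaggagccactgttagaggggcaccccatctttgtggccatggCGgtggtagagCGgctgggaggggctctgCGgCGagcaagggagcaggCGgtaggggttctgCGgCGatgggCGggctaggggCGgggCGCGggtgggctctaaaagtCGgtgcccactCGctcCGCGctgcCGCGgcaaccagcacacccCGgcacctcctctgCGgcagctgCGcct
The GNAS sequence held 43 CpG, that of MEST 25 and that of SNRPN 18. These are the richest windows of each gene by choice, and the poorest held 10, 13 and 2. All 35116 promoter windows of the same length had a median of 14, and 96.0% held at least 1. A G-quadruplex motif, taken as 4 runs of GGG with 1 to 7 bases between runs on either strand, was found in the GNAS and MEST sequences printed and not in that of SNRPN. Over all 19 windows of the matched genes it was found in 5, 26.3%, near the 24.9% of all promoter windows, with none at H19 or MEG3. H19 and MEG3 also matched the promoter table, with 6 and 19 CpG in their richest window, so that 5 of the 9 genes matched. IGF2, KCNQ1, CDKN1C and DLK1 were not matched. The builds differ, so whether an interval lies on one of these promoters, or in an exon or intron, was not determined.

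The density of intervals in 5 of the 6 windows was within 1.5-fold of that in the pooled flanks of 500 kb. In SNRPN the density was lower. For MEST the ratio rests on 1 interval, and its 95% interval, 0.0201 to 4.79, also includes ratios beyond 1.5-fold. Against single flanks the MEST ratio was 0.538 (lower flank) and 1.67 (upper flank). A window was called denser or sparser at a ratio of 1.5-fold. The same rule was applied to all consecutive windows of the same length over chromosomes 1 to 22 and X whose flanks held at least 20 intervals. The H19 and IGF2 window held 259 intervals per Mb (95% exact Poisson interval 188 to 347) against 237 in its flanks, a ratio of 1.09 (exact conditional 95% interval 0.773 to 1.51). The KCNQ1 and CDKN1C window held 260 intervals per Mb against 211, a ratio of 1.23 (0.975 to 1.55). The DLK1 and MEG3 window held 200 intervals per Mb against 179, a ratio of 1.12 (0.722 to 1.67). The GNAS window held 237.5 intervals per Mb against 198, a ratio of 1.199 (0.707 to 1.92). In these 4 windows the interval of the ratio includes equal density. Against the upper flank alone the KCNQ1 and CDKN1C ratio was 1.57 (1.17 to 2.10). None of the 6 windows was called denser, where the rule called 18.7% of all windows of the length of H19 and IGF2, 16.9% of those of KCNQ1 and CDKN1C, 19.1% of those of DLK1 and MEG3, 20.8% of those of GNAS and 24.0% of those of MEST.

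**Figure D1:**
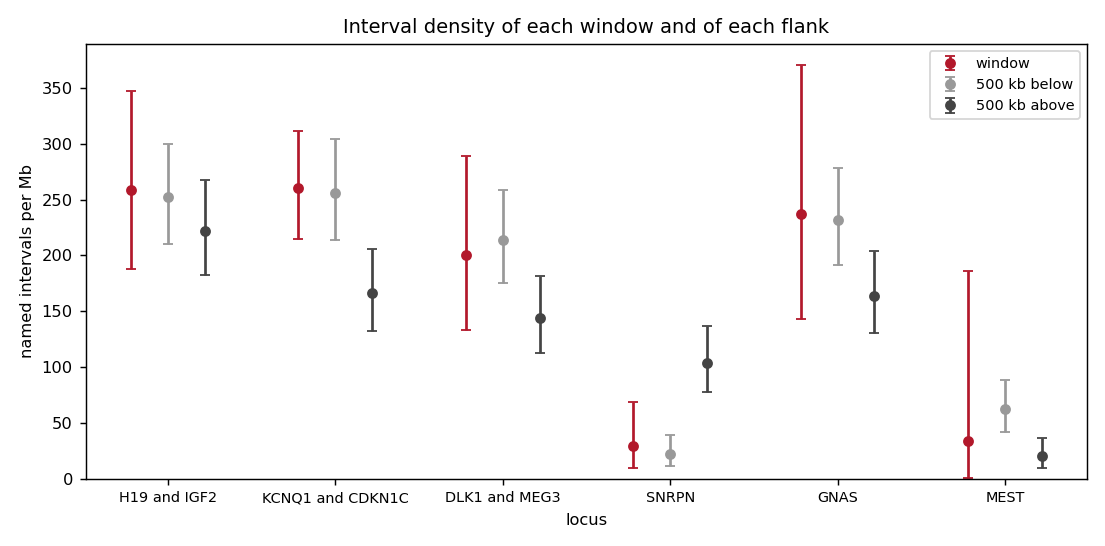
Named intervals per Mb (vertical axis) in each imprinted window and in the 500 kb below and above it (horizontal axis, by locus). Points are densities and bars are exact 95% Poisson intervals for counting error. H19 and IGF2, KCNQ1 and CDKN1C, and GNAS lie above both flanks. Their bars overlap those of both flanks, except that the bar of KCNQ1 and CDKN1C is apart from that of its upper flank. The other 3 windows lie between their flanks. SNRPN with 29.4 intervals per Mb and MEST with 33.3 are the lowest of the 6 windows, the bar of MEST reaching 186.

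SNRPN was the sparsest window. It held 5 intervals in 170 kb, or 29.4 per Mb (95% interval 9.55 to 68.6), against 63.0 per Mb in its flanks, a ratio of 0.467 (0.147 to 1.15). The interval of this ratio includes 1. It was the 1 window of 6 called sparser, where the rule called 35.2% of all windows of this length and from 30.5% to 44.7% at the other 4 lengths. A count of 1 in 6 is below each of these shares, but with only 6 windows it cannot be told from them. Its flanks were unlike each other, with 22 intervals per Mb below the window and 104 above it. Against the lower flank alone the ratio was 1.34 (0.364 to 4.17), the opposite direction, and against the upper flank alone 0.283 (0.0881 to 0.703). MEST held 1 interval in 30 kb, a ratio of 0.813 with an interval from 0.0201 to 4.79. At this length the density of the MEST window cannot be told from that of its flanks.

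The other 4 loci lay in regions dense in intervals on both sides. Over the genome, windows of 170 kb with any interval had a median of 29.4 intervals per Mb (quartiles 11.8 and 100.0), and 23.5% of windows of this length held none. Windows of 80 kb had a median of 37.5 intervals per Mb, with an upper quartile of 125, and windows of 450 kb had a median of 26.7 with an upper quartile of 86.7. The windows of H19 and IGF2, KCNQ1 and CDKN1C, DLK1 and MEG3, and GNAS were all above the upper quartile for their length, and so were their pooled flanks. SNRPN was at the median of windows of its length that hold an interval, and above the median of 17.6 per Mb over all windows of that length, empty ones included.

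Intervals covered 48.0% of the bases of the H19 and IGF2 window, the largest share of the 6, against 35.5% of its flanks. The share was 32.8% in the KCNQ1 and CDKN1C window (flanks 37.4%), 24.5% in DLK1 and MEG3 (16.7%), 18.2% in GNAS (18.6%), 3.22% in MEST (3.16%) and 1.04% in SNRPN (6.45%). In bases shared by peaks of both libraries the order was the same, from 28.1% in H19 and IGF2 to 0.868% in SNRPN. In H19 and IGF2 the density ratio was 1.09 and the ratio of median widths 1.71.

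The loci ranged from very early at MEST, which has 1 interval, to very late at SNRPN, which has 5. The authors sorted intervals into 6 classes from very early to very late, from data and by a rule that the sources used here do not give. The 3 earlier classes held 129 of the 214 members, 60.3%, against 70.0% of all named intervals. On chromosome 11 they held 109 of 161 members, 67.7%, where all named intervals of that chromosome had 68.7%. At the other 4 loci they held 20 of 53 members, 37.7%, with 0 of 28 at DLK1 and MEG3. The single very early member was the MEST interval. Of the rest, 39 were early, 89 mid early, 80 mid late, 0 late and 5 very late, the last all at SNRPN.

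**Figure D2:**
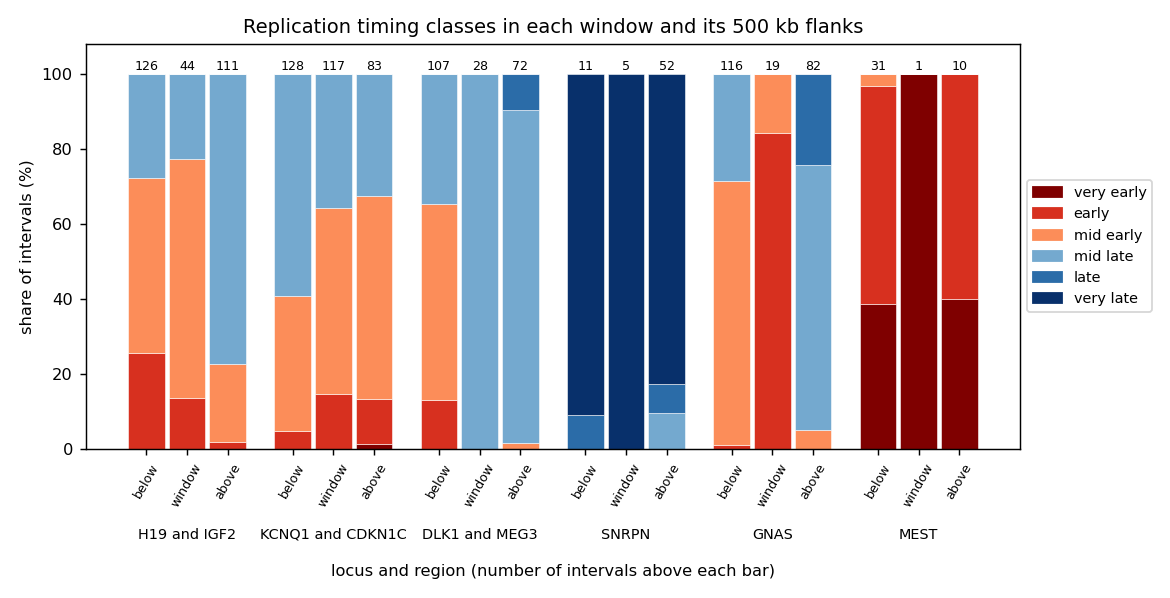
Share of intervals in each of the 6 timing classes (vertical axis, %) in each window and in the 500 kb below and above it (horizontal axis). Numbers above the bars are intervals. GNAS is mostly early between mid early and mid late flanks, DLK1 and MEG3 entirely mid late, and SNRPN entirely very late.

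GNAS intervals were in earlier classes than those around them. The 3 earlier classes held all 19 intervals (exact 95% binomial interval 82.4% to 100%), against 43.9% in the flanks, with 71.6% below the window and 4.88% above it. Of the 19, 16 were early and 3 mid early. The earliest 2 classes, a division chosen after the values were seen, held 84.2% (60.4% to 96.6%) in the window, 0.505% (1 of 198 intervals, 0.0128% to 2.78%) in its flanks and 40.1% of all named intervals. The flank below the window was mostly mid early (82 of 116 intervals) and the flank above mostly mid late (58 of 82). The 16 early intervals formed 1 uninterrupted run from 57421023 to 57477351 on chromosome 20, 56.3 kb long. Below it a mid early run of 52 intervals reached from 57218708 to 57418731, and above it the next intervals were 4 mid early ones from 57520052 to 57559989, followed by 56 mid late ones. The mean class of the window, on a scale from 1 (very early) to 6 (very late), was 2.16 against 3.66 in its flanks. Of 10056 windows of 80 kb with at least 5 intervals, 6.53% were at least 1 step earlier than their flanks. The window was defined around the gene, and the run of early intervals ends 12.6 kb inside its upper edge.

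DLK1 and MEG3 were later than the region below them and like the region above. All 28 intervals of the window were mid late, so the 3 earlier classes held 0 of 28, which allows a share of up to 12.3% (exact 95% interval). In the lower flank they held 70 of 107 intervals, 65.4%, and in the upper flank 1 of 72, 1.39%. The window lay inside a mid late run of 59 intervals that reached from 101170503 to 101520364 on chromosome 14, 350 kb long. The change from mid early to mid late therefore fell below the window, between 101161749 and 101170503. The mean class was 0.436 steps later than the flanks, less than the step of 1 used for a call.

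SNRPN was very late throughout. All 5 of its intervals and 53 of 63 flank intervals were very late, the class that held 2.16% of all named intervals. A very late run of 57 intervals spanned the window, from 24722033 to 25490018 on chromosome 15, 768 kb long. In its lower flank 10 of 11 intervals were very late and the other 1 was late. MEST was at the opposite end. Its interval was very early, and of the 41 flank intervals 16 were very early, 24 early and 1 mid early.

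The chromosome 11 windows each held several changes of class. In H19 and IGF2, 28 of 44 intervals were mid early, 10 mid late and 6 early. The order along the chromosome was mid late (5 intervals), mid early (11), early (6), mid early (17) and mid late (5), so the earliest intervals lay in the middle, from 2091403 to 2115906. The 3 earlier classes held 77.3% (exact 95% interval 62.2% to 88.5%) against 48.9% in the flanks. The lower flank, with 72.2%, was within that interval, and the upper flank, with 22.5%, was not. KCNQ1 and CDKN1C had 17 early, 58 mid early and 42 mid late intervals, in 8 runs. The 3 earlier classes held 64.1% (54.7% to 72.8%) against 51.2% in the flanks. This difference depended on the flanks taken, with 67.5% above the window and 40.6% below it. The difference of 12.9 percentage points was 31.6 with flanks of 250 kb and -1.63 with flanks of 1 Mb. The flanks of these windows overlap the other window, and so some intervals stand in both comparisons. With the other window left out of the flanks, the density ratio was 1.03 (0.725 to 1.43) for H19 and IGF2 and 1.29 (1.01 to 1.65) for KCNQ1 and CDKN1C.

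Each interval took the fold enrichment that the authors deposited for the replicate 1 peak sharing most bases with it. The values are those of replicate 1 alone, and nothing in these lists gives replicate 2's. Over all 214 members the median was 5.33-fold (quartiles 4.34 and 7.54), against 4.73-fold over all named intervals (3.79 and 6.38). The 760 flank intervals, members left out, had a median of 4.95-fold, between these values. At 10-fold or more stood 22 members, 10.3%, against 8.16% of flank intervals and 7.16% of all named intervals. At 20-fold or more stood 3 members, 1.40%, against 0.658% and 0.898%.

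**Figure D3:**
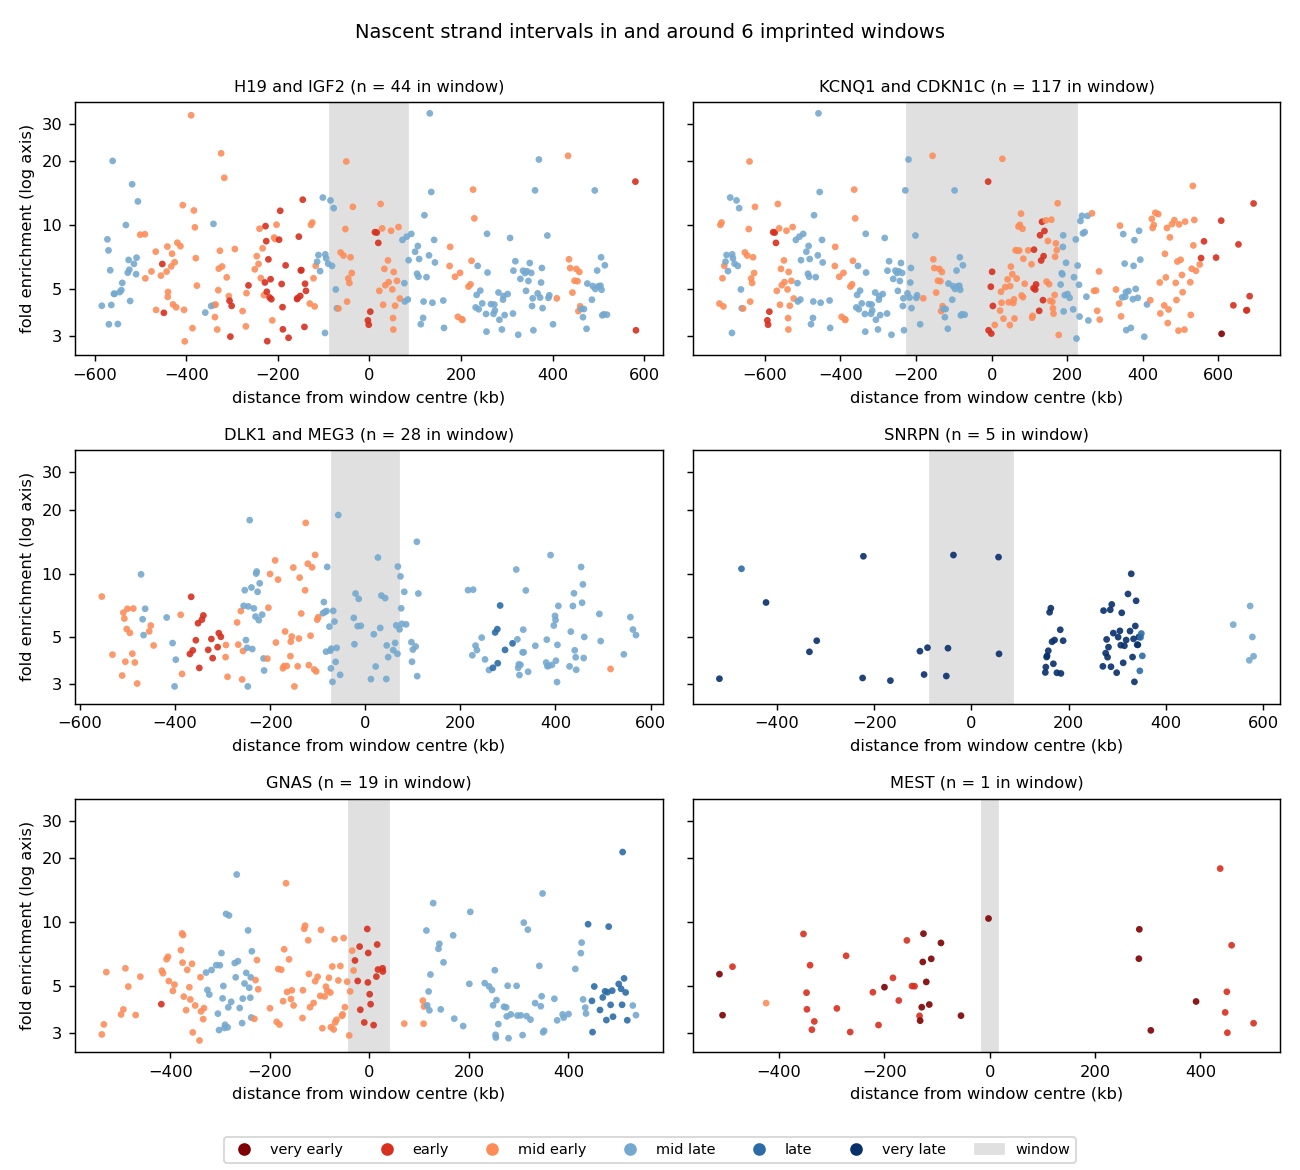
Fold enrichment of the replicate 1 peak (vertical log axis) of each interval against its distance from the centre of the window in kb (horizontal axis), for the 6 loci. Colour gives the timing class, and the grey band is the window. The 3 strongest members, between 20.4-fold and 21.2-fold, lie in the KCNQ1 and CDKN1C window, and the GNAS band holds 16 early intervals where its flanks hold 1.

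At GNAS the median enrichment was above that of the flanks. Its intervals had 3.26-fold at the lowest, 5.84 at the median and 9.26 at the highest, and the flank median was 4.65. The ratio was 1.26, and the exact order-statistic interval of the window's median, 4.56 to 7.14, includes the flank median. Of windows of 80 kb with at least 5 intervals, 12.8% were at least 1.2-fold above their flanks. None of the 19 reached 10-fold, which allows a share of up to 17.6% (exact 95% interval), and the flank share of 4.04% (8 of 198) is within that. The strongest lay from 57445629 to 57446141 on chromosome 20 (513 bp, early), and the weakest from 57458422 to 57458905 (484 bp, early, 3.26-fold). When peaks below a −log10 q of 5 were left out, the ratio was 1.03.

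In H19 and IGF2 the median enrichment was 5.78-fold (range 3.22 to 19.96) against 5.47 in the flanks, in KCNQ1 and CDKN1C 5.18 (2.92 to 21.2) against 5.71, and in DLK1 and MEG3 5.36 (3.09 to 18.9) against 5.03. In H19 and IGF2, and in DLK1 and MEG3, the flank median was inside the interval of the window's median. In KCNQ1 and CDKN1C the window's interval, 4.81 to 5.60, was below the flank median, whose own interval of 5.23 to 6.10 overlaps it, and the ratio of 0.907 became 1.04 with flanks of 250 kb. The strongest H19 and IGF2 interval lay from 2043638 to 2045470 (1833 bp, mid early, 19.96-fold). Both libraries' peaks covered 36.7% of its bases. The strongest of all members lay in the KCNQ1 and CDKN1C window from 2528565 to 2529175 (611 bp, mid early, 21.2-fold). It was followed by intervals from 2713258 to 2713855 (598 bp, mid early, 20.5-fold) and from 2464390 to 2466045 (1656 bp, mid late, 20.4-fold). The strongest DLK1 and MEG3 interval lay from 101202775 to 101203523 (749 bp, mid late, 18.9-fold).

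SNRPN had few intervals but 2 strong ones. The 5 lay in 2 places. From 25093254 to 25093490 the enrichment was 3.29-fold, from 25096574 to 25096925 4.45-fold and from 25107882 to 25108142 12.2-fold. From 25200410 to 25201173 it was 11.95-fold and from 25201751 to 25201907 4.18-fold. Between both groups lay a stretch of 92.3 kb with no interval. With 2 of 5 at 10-fold or more, against 2 of 63 in the flanks, the shares were 40.0% (exact 95% interval 5.27% to 85.3%) and 3.17% (0.387% to 11.0%). Both flank intervals of that strength were in the lower flank of 11 intervals. The median, 4.45-fold, was near the flank median of 4.61. When intervals below a −log10 q of 5 were left out, these 2 were the window's intervals, and the ratio of medians was 2.23 in place of 0.964. It was 1.71 without intervals under 200 bp, and 1.69 when a peak had to overlap at least 50% of an interval, so the direction of the SNRPN ratio depended on these settings. The widest, from 25200410 to 25201173, was 764 bp, and peaks of both libraries covered 92.9% of it.

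The MEST interval lay from 130131253 to 130132218 on chromosome 7, was 966 bp wide and very early, and had 10.4-fold enrichment with a −log10 q of 19.8. Only 1 of the 41 flank intervals, at 17.9-fold, was stronger. The flanks had a median of 4.66-fold with quartiles of 3.63 and 6.48. Its nearest neighbours lay 39.1 kb below the lower edge of the window (3.62-fold) and 268 kb above the upper edge (6.71-fold), both very early.

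**Figure D4:**
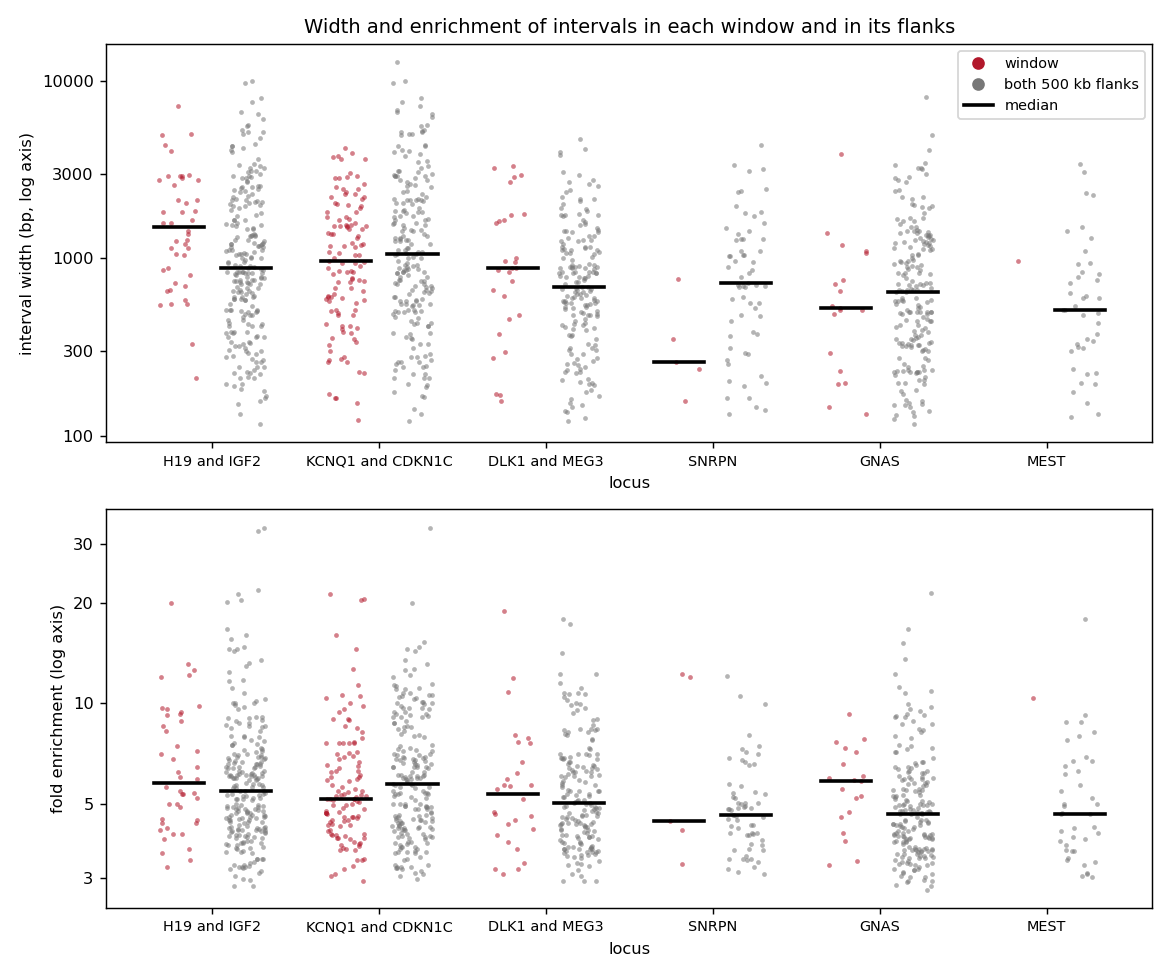
Interval width in bp (upper panel, log axis) and fold enrichment (lower panel, log axis) for every interval in each window (red) and in both 500 kb flanks (grey), with medians as black bars. H19 and IGF2 have the widest intervals by median, 1510 bp against 881 bp in the flanks. SNRPN has 2 intervals near 12-fold among 5.

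Intervals had the largest median width at H19 and IGF2. Their median width was 1510 bp (exact order-statistic interval 1137 to 2062) against 881 bp in the flanks, a ratio of 1.71, and the window's interval excludes the flank median. Of windows of 170 kb with at least 5 intervals, 11.0% were at least 1.5-fold wider than their flanks. The window also held 5 intervals of 3 kb or more, 11.4% of its 44, against 12.2% in its flanks and 3.94% of all named intervals. The widest lay from 2028606 to 2035818 (7213 bp, mid early, 7.44-fold), with 53.3% of its bases shared by both libraries. The next wide intervals lay from 2014614 to 2019663 (5050 bp, 12.03-fold) and from 2007660 to 2012631 (4972 bp, 13.1-fold), the last crossing the lower edge of the window by 2.34 kb. Its neighbour just outside, from 2003429 to 2006730, was 3302 bp wide with 6.58-fold.

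The 1 interval of MEST was 966 bp wide, against a flank median of 511 bp. KCNQ1 and CDKN1C had a median of 970 bp against 1063, DLK1 and MEG3 884 bp against 688, and GNAS 521 bp against 646. In each of these the window's interval includes the flank median. SNRPN intervals were 157 to 764 bp wide with a median of 261, against 729 bp in the flanks, a ratio of 0.358. With 5 intervals this range is the interval of the median, and it includes the flank median. Of windows of the length of SNRPN with at least 5 intervals, 14.9% were at least 1.5-fold narrower than their flanks. The widest KCNQ1 and CDKN1C interval lay from 2536323 to 2540538 (4216 bp, mid early, 4.81-fold). The widest members outside chromosome 11 lay at GNAS from 57424749 to 57428612 (3864 bp, early, 5.27-fold) and at DLK1 and MEG3 from 101248887 to 101252221 (3335 bp, mid late, 5.67-fold). Across the 214 members width and enrichment were related with a Spearman rho of 0.43, against 0.42 across all 161720 named intervals with a value. Both measures come from the same peaks, so this is a description only.

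Peaks of replicate 1 were more often in several shared pieces in the chromosome 11 windows than over the whole list. The 6 windows held 306 shared pieces of 215 peaks, and 71 of the peaks (33.0%) were in 2 or more pieces, against 15.2% of all listed peaks. Of these 71, 63 were on chromosome 11, and at the other 4 loci 8 of 54 peaks were cut, 14.8%. The share was 45.5% (20 of 44 peaks) in H19 and IGF2, with 28.8% in its flanks, and 36.8% (43 of 117) in KCNQ1 and CDKN1C, with 31.9%. It was 20.7% (6 of 29) in DLK1 and MEG3, with 16.5% in its flanks. The other 3 windows were below their flanks, GNAS with 10.5% (2 of 19) against 40 of 200 peaks, SNRPN with 0 of 5 against 22.2% and MEST with 0 of 1 against 12.2%. The flanks on chromosome 11 were also above the share of the whole list. Peaks of replicate 1 are numbered along the genome, so the numbers spanned by a window show how many were listed. In H19 and IGF2 44 of 48 numbers were listed, 91.7% (exact 95% interval 80.02% to 97.7%), against 78.6% in its flanks. Over the whole list the share was 71.2% of the numbers up to the highest. In GNAS 19 of 21 were listed, 90.5% against 83.3% in its flanks, and in DLK1 and MEG3 29 of 38, 76.3% against 70.3%. KCNQ1 and CDKN1C were below their flanks, with 117 of 156 listed (95% interval 67.4% to 81.6%) against 81.9%, and so was SNRPN, with 5 of 8, 62.5% against 76.8%. Each flank share except that of H19 and IGF2 and that of KCNQ1 and CDKN1C was inside the interval of its window. The flanks of KCNQ1 and CDKN1C include the whole H19 and IGF2 window, where 44 of 48 numbers were listed. Those of H19 and IGF2 include part of the KCNQ1 and CDKN1C window. Shares of cut and of listed peaks were not recomputed without this overlap.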

How the data were processed

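Nascent strand DNA of 2 U2OS libraries was sequenced. BWA, MACS2 and the build hg19 are named, without versions, in the submitters' processing notes. The authors deposited a list of peak pieces shared by both libraries, with the fold enrichment (a ratio) and the −log10 q of the replicate 1 peak, and 6 interval lists, 1 per timing class, whose deposited score is constant and was not used. Depth, any control library and the timing data: not given in the sources used here.

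Each named interval was counted once and assigned to a window by its midpoint. Its fold is that of the peak sharing most bases, at least 1 bp. Flanks were 500 kb on each side. No test was run, since there is 1 group. Densities have exact Poisson, density ratios exact conditional, shares exact binomial (Clopper-Pearson) and medians exact order-statistic 95% intervals (for SNRPN the range), computed with Python 3.11.15, numpy 2.4.6, pandas 2.3.3 and scipy 1.17.1 and checked on simulated data. Genome windows of equal length gave the background; medians and timing used those with at least 5 intervals. The members, gene lists and rules were chosen with earlier results of these data known. Named intervals are the strongest and widest of each window; the weakest GNAS interval, the next strongest and widest, all SNRPN and MEST intervals and edge neighbours were added after values were seen. Counts at gene features were not run, since no hg19 annotation was used here. Alternatives are given in the closing section.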

Additional observations from a re-analysis of the deposited data

How the results depend on the processing

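Of 239 values recomputed under alternatives, 221 stayed within the counting interval of the reported value (for counts of windows, within 1.5 times), 14 moved outside it, and 4 reversed, which was counted only for densities called and for other values whose interval excludes no difference. Of the 221, 12 also changed direction: the KCNQ1 and CDKN1C ratio of widths (1.06 to 1.09) in 3 settings of the flanks and its ratio of covered shares (1.05) with flanks of 1 Mb, the DLK1 and MEG3 density ratio (0.935) against the lower flank, the MEST density ratio in 3 settings (1.26 to 1.75) and ratio of covered shares in 1 (0.877), and the SNRPN ratio of enrichments in 3 (1.69 to 2.23). Some of the 221 say little about stability. For the 18 ratios of covered shares the interval was that of the density ratio, rescaled, and it takes no account of widths. For widths, enrichments and timing it was the interval of the window alone, with the flank value held fixed. Leaving other imprinted windows out of the flanks changes nothing outside chromosome 11. At SNRPN and MEST the difference in the share of the 3 earlier classes was 0 in every setting. The interval of the MEST density ratio, 0.0201 to 4.79, holds almost any value. Most changes came from the flanks. Against the lower flank alone the density ratio of SNRPN was 1.34, and against the upper flank alone that of KCNQ1 and CDKN1C was 1.57. The number of windows called denser rose from 0 to 2 against the upper flank alone (KCNQ1 and CDKN1C, and MEST at 1.67), and to 2 with a −log10 q of at least 5 (GNAS and MEST, both at 1.75), and the 1 window called sparser was SNRPN in the main setting and MEST, at 0.538, against the lower flank alone. The ratio of median enrichments of KCNQ1 and CDKN1C was 1.04 with flanks of 250 kb. The difference in the share of the 3 earlier classes, window minus flanks in percentage points, was -41.0 with flanks of 250 kb, -55.9 with flanks of 1 Mb, -65.4 against the lower flank and -1.39 against the upper flank for DLK1 and MEG3 (main -39.7). For GNAS (main 56.1) it was 56.4 with intervals of at least 200 bp, 28.4 against the lower flank and 95.1 against the upper one. For H19 and IGF2 (main 28.3) it was 5.05 against the lower flank and 54.8 against the upper one. For KCNQ1 and CDKN1C (main 12.9) it was 31.6 with flanks of 250 kb, -1.63 with flanks of 1 Mb, 23.5 against the lower flank and -3.37 against the upper flank. With genome windows whose flanks held at least 1 interval, a background chosen after seeing the data, 41.3% of windows of the length of SNRPN were called sparser. Leaving out a library was not run, because the lists hold the intersection of both. No paired analysis was possible because there is 1 group.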

Other observations

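The longest stretch without an interval in the KCNQ1 and CDKN1C window was 61.3 kb, from 2614337 to 2675685, and the timing class differed across it. Of the 39 intervals below it 11 (28.2%) were in the 3 earlier classes, and of the 78 above it 64 (82.1%). The interval just below was mid late and the one just above, from 2675686 to 2676109, was early with 16.0-fold enrichment, a step of 2 classes. Median widths were alike on both sides, 954 bp and 990 bp, and so were median enrichments, 5.002-fold and 5.28-fold.

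The longest such stretch in H19 and IGF2 was 31.3 kb, from 2060117 to 2091402, with a mid early interval of 12.2-fold at its lower end and an early one of 3.56-fold at its upper end. The 16 intervals below it had a median width of 1985 bp and the 28 above it 1233.5 bp. Mappability, repeats and copy number in these stretches were not analysed here, so a stretch without intervals is a stretch without listed peaks and no more.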
